A study of Homo sapiens with 9 samples.

Results

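Primary cilium transport genes were followed in HEK293 cells, a human embryonic kidney line, with and without the zinc-sensing receptor GPR39 and its agonist. The genes were taken by name: symbols of the array annotation that start with IFT, BBS, TTC or CEP and a digit, plus TMEM17, with 1 probe set per gene, the one with the highest mean over 9 arrays. This gave 99 of 14884 named genes, of which 96 passed the filter on low signal: 17 of 17 IFT genes, 8 of 8 BBS genes, 32 of 35 TTC genes, 38 of 38 CEP genes and TMEM17. TTC21B-AS1, TTC29 and TTC9B did not pass it. The name rule is wider than cilium transport: 91 members are protein-coding and the others are pseudogenes or long noncoding RNAs, and many TTC and CEP proteins have other known roles.

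The study hybridised biotin-labelled RNA of 3 groups to Affymetrix arrays, with 3 arrays in each. The mock group was naive HEK293 cells kept without cumate, the small molecule that switches on a cumate-inducible promoter. The GPR39 group carried the receptor as a transgene, labelled as overexpressed, and received cumate at 0.03 mg/mL. The agonist group carried the same receptor label and received TC-G-1008 at 1 uM, a synthetic GPR39 agonist; its labels name no cumate and no group has an exposure time. In GPR39 against mock, receptor and cumate cannot be told apart, and in agonist against GPR39 the agonist and a possible lack of cumate cannot be told apart. The replicates are labelled biological, but no label says they were separate cultures, so the tests weigh differences against an array-to-array spread that may be only technical. Arrays hold no read depth, and their number limits the precision.

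The receptor's own probe set did not check the labels, because it was below the filter on all arrays: its log2 signal was 2.47 ± 0.07 (SD, n = 3) in mock, 2.58 ± 0.04 in GPR39 and 2.58 ± 0.11 in agonist cells. Of the HEK293 markers, 7 of 13 were named on the array and all 7 passed the filter, with their mean level between 7.21 and 7.35 in mock, 7.07 and 7.11 in GPR39 and 6.85 and 6.98 in agonist arrays. Some of them changed: IRS4 was lower in GPR39 than in mock cells (-1.03 ± 0.14, adjusted p = 0.0162), EYA1 (-0.82 ± 0.08, 0.000992) and LIN28B (-0.41 ± 0.06, 0.00751) were lower in agonist than in GPR39 cells, and 4 were lower and 1 higher in agonist than in mock cells. From mock to agonist, 14.0% of all named genes were lower and 7.82% higher. Of the leukocyte markers 4 were tested, and 1, the lysosomal protein CD68, was higher in GPR39 (0.90 ± 0.12, adjusted p = 0.0124) and in agonist cells (1.23 ± 0.12, 4e-04) than in mock. TYROBP had 0.68 ± 0.21 from mock to agonist and did not pass (0.0719). The mean level of the leukocyte list was between 3.78 and 3.90 in mock, 4.13 and 4.33 in GPR39 and 4.28 and 4.45 in agonist arrays, and its part in the changes of the cilium genes was not tested. Neither of the 2 fibroblast markers on the array passed the filter. Of 5 hepatocyte markers on the array, 2 passed the filter, and neither of these passed the threshold in any comparison. Mock array 1 stood apart: its mean correlation was 0.984 with the GPR39 arrays and 0.979 with its own group. Member calls that its omission adds are given with their comparison. Among tested probe sets, 44.4% had the same value to the last digit on 2 or more arrays, and 46 of the 99 members did. CEP250 had 1 value, 4.37, on 7 arrays and IFT52 had 1 value, 5.72, on 5, in both cases including all 3 mock arrays, so a small SD of such a gene may understate its error. The submitters' notes name MAS5 for these values; how the ties arose was not tested, and the method that made the values could not be settled here.

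The primary cilium is a single antenna-like extension built on a centriole, on which cells place receptors such as those of the Hedgehog pathway. Its parts are carried by intraflagellar transport: the IFT-B complex travels outward with kinesin-2 motors, and the IFT-A complex returns with dynein-2. The BBSome, a complex of Bardet-Biedl syndrome proteins, moves membrane receptors along the same tracks, while CEP proteins belong mostly to the centrosome and the base of the cilium. TTC proteins share only the tetratricopeptide repeat, a fold for binding other proteins.

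Many genes of cilium assembly carry an X-box, the DNA element bound by RFX transcription factors, in their promoters, and its half-site was searched in RefSeq promoter windows (GRCh38.p14) of 250 bases before to 50 bases after the gene start. Where a gene has several windows, the first listed was used, for members and for all other genes alike. The half-site was spelled GTTGCC and read on both strands, so that it also appears as its reverse complement. Windows were found for 87 members. The half-site stood in 26 of them (29.9%), against 12.2% of all 27305 windows and 13.2% of the 10749 windows of genes named on the array. It stood in 8 of 16 IFT, 3 of 7 BBS, 5 of 31 TTC and 9 of 32 CEP windows and in that of TMEM17. Among the members lower in agonist than in GPR39 cells it stood in 12 of 20 windows (60%), and among those not past the threshold in 14 of 62 (22.6%). Among all other named genes lower in the same comparison it stood in 13.4% of 949 windows. These shares are descriptions with no test, and a match is not a bound site. A facing pair, GTTNCC followed after 0 to 3 bases by GGNAAC, stood in 6 member windows (6.9%), in 0.714% of all windows and in 0.893% of those of genes named on the array. This pair stood in 3 of 20 windows of lower members and in 3 of 62 of members not past the threshold (IFT122, CEP135 and TTC23L). It overlaps the half-site wherever its N is G on the left or C on the right.

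Stretches of at most 30 bases around the match are shown for members that were lower in agonist cells and for IFT46, which was higher in GPR39 cells, because they let the spelling be compared between complexes. Each reads along the gene's own strand, and capitals mark the half-site or, for IFT70A, CEP41 and TMEM17, the facing pair. Only a single match per gene is in capitals. The windows of IFT70A and CEP41 hold 3 half-sites each, and the IFT70A stretch shows a further half-site in lower case.
BBS10: gaggggcttaggGTTGCCgctccaggcaca
BBS5: cagaggcggcccGTTGCCttggagccagag
TTC8: cagccgtcgcggGTTGCCgggcagagtcgg
IFT70A: cccggttgccctGTTGCCGTGGTAACcgca
IFT70B: tccggttgctctGTTGCCatagtaaccgca
IFT81: ggcctagcaaccGTTGCCaaggagctcgac
IFT88: gattccgcgcttGGCAACggctcggcgtcg
IFT74: caacacagccggGGCAACccgactcccagc
IFT27: ggagcttttggcGGCAACcaatcgagggtc
IFT46: tttatcagccgcGTTGCCacccatagccgc
TMEM17: tcgcgccgcccgGTTGCCGTGGGAACcacg
CEP41: ccggcgtcccgcGTTGCCCTTGGCAACcat
CEP126: agggatgcttggGTTGCCacccgccgctcg
IFT70A (chr2:177618723-177618752, minus strand) and IFT70B (chr2:177552785-177552814, minus strand) are near-identical copies. Their stretches read alike around the match, which starts 2 bases after the gene start of IFT70A and 6 bases before that of IFT70B. The BBS10 stretch is chr12:76348619-76348648 on the minus strand, 221 bases before the gene start, while that of IFT81 is chr12:110124345-110124374 on the plus strand, at the gene start itself. The TMEM17 stretch is chr2:62506193-62506222 on the minus strand. The lower members BBS2, BBS7, CEP162, CEP20, CEP55, TTC12, TTC31 and TTC39A did not have these letters in the window read, which says nothing about the factor; for CEP78 no window was read.

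The comparison of agonist with GPR39 cells addresses what the agonist adds to the receptor, if the agonist cells also received cumate, which their labels do not say. Of the 96 members tested, 21 were lower and 2 higher in agonist cells at an adjusted p of 0.05 (limma, Benjamini-Hochberg over all 33376 probe sets tested). Over all probe sets tested, 5.95% were lower and 3.12% higher; over the 11916 named genes with 1 probe set each, 9.68% were lower and 3.64% higher. The median change, in log2, was -0.19 over the members, 0.01 over all probe sets tested and -0.03 over the named genes. By family, 6 of 17 IFT genes, 4 of 8 BBS genes, 4 of 32 TTC genes and 6 of 38 CEP genes were lower, as was TMEM17, and the 2 higher genes were CEP genes. The medians were -0.34 for IFT, -0.39 for BBS, -0.14 for TTC and -0.04 for CEP. The arrays read bulk RNA, so fewer cells of a type and less RNA per cell cannot be told apart.

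**Figure D1:**
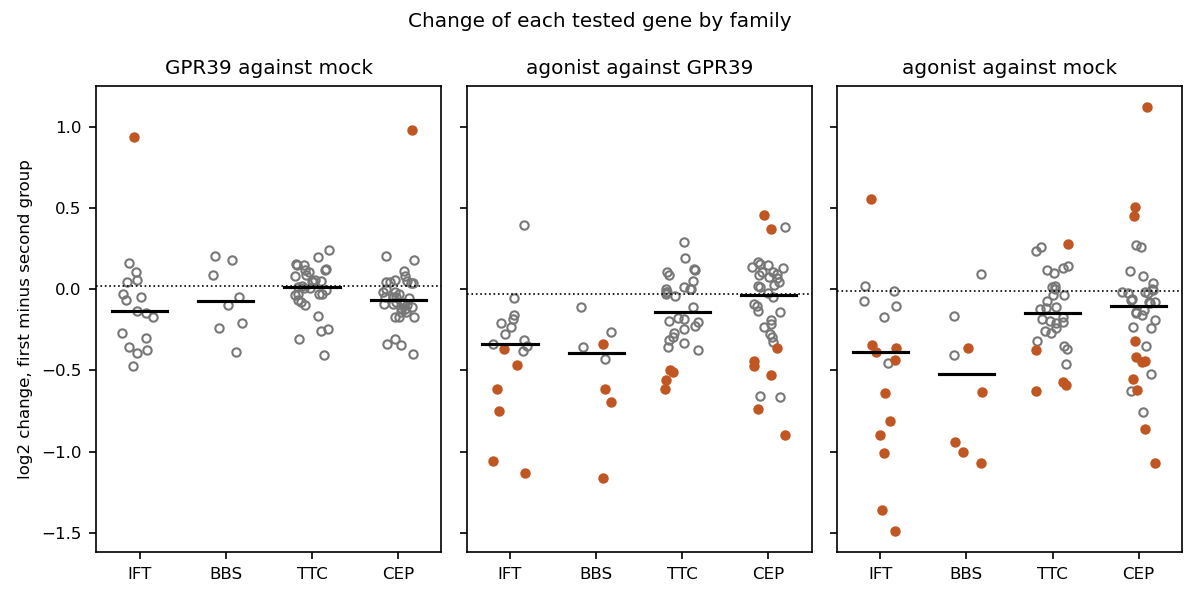
Log2 change of each tested gene (y axis) by family (x axis) in the 3 comparisons; filled points passed an adjusted p of 0.05, black bars are family medians and the dotted line is the median of all named genes. In agonist against GPR39 the IFT and BBS medians, -0.34 and -0.39, lie below the dotted line at -0.03, and the CEP median of -0.04 lies on it.

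Of the 13 genes of the IFT-B complex that the name rule takes in, 6 were lower in agonist cells. All 13 had changes below 0, with a median of -0.37, beside 6706 of 11916 named genes with changes below 0. The 6 lower IFT-B genes, IFT70A, IFT70B, IFT81, IFT88, IFT74 and IFT27, belong to the core of the complex, known as B1, which has 9 members here. None of the 4 genes taken in from the outer part, known as B2, passed in limma. At an unadjusted p under 0.05, 2 of them were lower. IFT80 (-0.35 ± 0.09 SE, adjusted p = 0.0504) and IFT172 (-0.34 ± 0.09, adjusted p = 0.0508) missed the threshold narrowly, and a difference between core and outer part was not tested. Here and below, the share of all probe sets under an unadjusted p of 0.05 was not counted, so unadjusted counts have no background.
IFT70B and IFT70A encode alternative copies of a core subunit that wraps around IFT52. The IFT70B signal, in log2, was 6.76, 6.61 and 6.29 on the mock arrays, 6.37, 6.13 and 6.10 on the GPR39 arrays and 4.97, 5.00 and 5.23 on the agonist arrays. All 3 agonist arrays lay below the 6 others, and the mock and GPR39 arrays overlapped. The change from GPR39 to agonist was -1.13 ± 0.14 (SE; adjusted p = 0.0031). IFT70A read 6.64, 6.28 and 6.25 in mock, 6.30, 5.91 and 6.06 in GPR39 and 4.65, 5.33 and 5.12 in agonist cells. The order of the groups was that of IFT70B, with the agonist arrays again lowest, and the change was -1.06 ± 0.19 (adjusted p = 0.0139). The array may not separate the copies, so these are not independent readings. A second probe set named IFT70A changed by -0.48 ± 0.19 and did not pass (adjusted p = 0.168).

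IFT81 and IFT74 form the coiled pair that binds tubulin, the main cargo of the growing cilium. IFT81 read 6.47, 6.11 and 6.17 in mock, 6.11, 6.04 and 6.15 in GPR39 and 5.36, 5.44 and 5.25 in agonist cells. The agonist arrays did not overlap either other group, and the change from GPR39 was -0.75 ± 0.11 (adjusted p = 0.0049). IFT74 read 6.05, 6.24 and 6.29 in GPR39 and 5.88, 5.78 and 5.52 in agonist cells, a change of -0.47 ± 0.11 (adjusted p = 0.0355).
IFT88, also named polaris, whose loss in the mouse ties defective cilia to cystic kidneys, fell in agonist cells. It read 5.20, 5.50 and 5.11 in mock, 4.87, 4.90 and 4.86 in GPR39 and 4.13, 4.47 and 4.17 in agonist cells. The 3 groups did not overlap at all, with mock highest, and the change from GPR39 to agonist was -0.62 ± 0.12 (adjusted p = 0.0205). IFT27, the small GTPase that helps the BBSome leave the cilium, was lower by a smaller amount (-0.37 ± 0.09, adjusted p = 0.0423).
Leaving out single arrays ended some of these calls. IFT70B and IFT81 passed without any one array. IFT70A missed the threshold without GPR39 array 1 or 3 (highest adjusted p = 0.0549). IFT88 missed it without any GPR39 array or without agonist array 1 or 3 (highest 0.0724). IFT74 missed it without mock array 2 or 3, GPR39 array 2 or 3 or agonist array 2 or 3 (highest 0.122), and IFT27 in all omissions but those of mock array 1 and mock array 3 (highest 0.137). Without mock array 1, which stands apart, 9 IFT genes passed: IFT172, IFT46 and IFT56 joined the 6.

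None of the 4 IFT-A genes that the name rule takes in passed in this comparison in limma. At an unadjusted p under 0.05, 1 of them was lower. IFT43 (-0.24 ± 0.08), IFT122 (-0.21 ± 0.09) and IFT140 (-0.19 ± 0.15) had negative changes, and TTC21B, the IFT-A subunit also named IFT139, had 0.12 ± 0.09. Their adjusted p-values were between 0.136 and 0.514. IFT20, the subunit also found at the Golgi, had the change nearest 0 among the protein-coding IFT genes (-0.06 ± 0.10, 95% confidence interval -0.29 to 0.18). The 95% interval of IFT57 was -0.35 to 0.03. These intervals leave room for modest falls. The one IFT symbol above 0 was the pseudogene IFT122P3 (0.40 ± 0.20, adjusted p = 0.284).

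**Figure D2:**
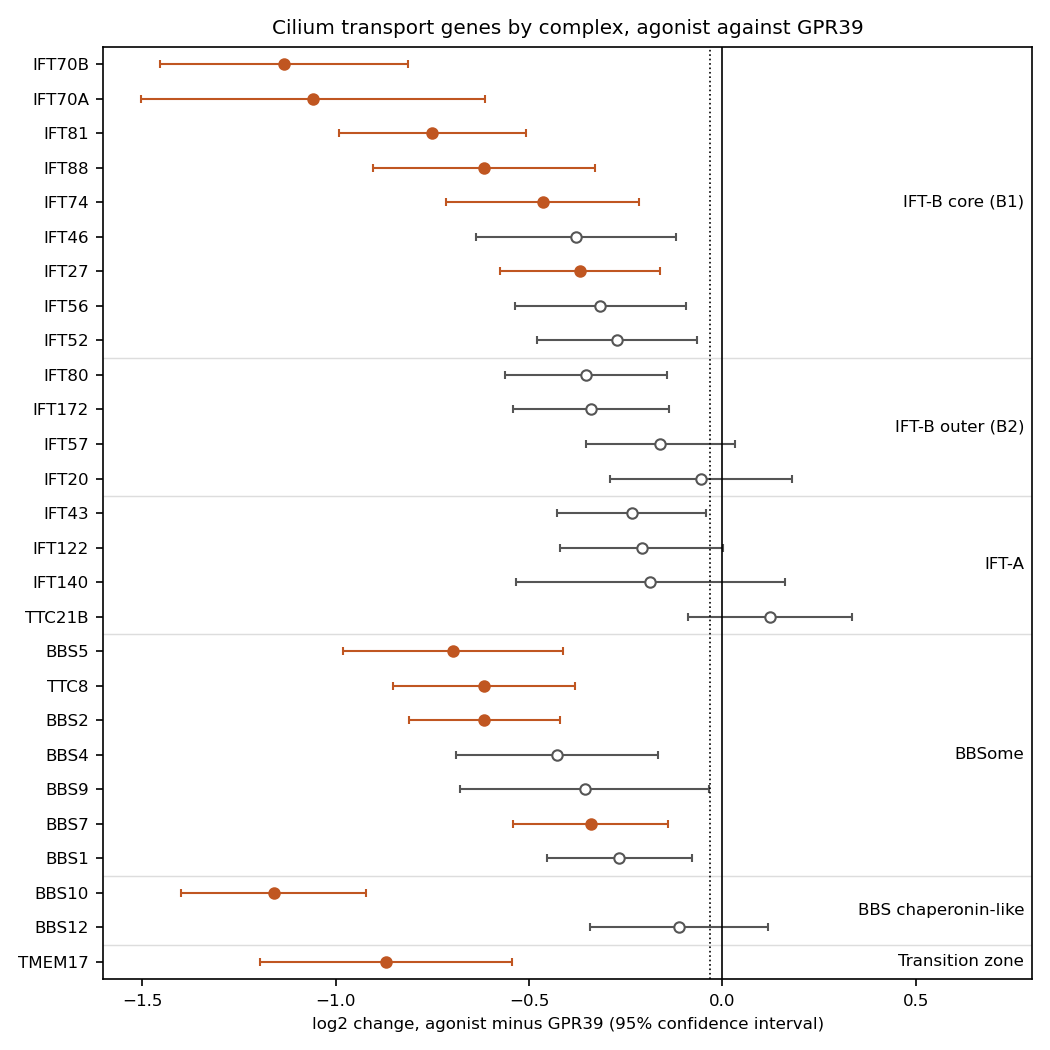
Log2 change from GPR39 to agonist cells (x axis, points with 95% confidence intervals) for each member gene of the transport complexes and TMEM17 (y axis). Filled points passed an adjusted p of 0.05, and the dotted line is the median of all named genes, -0.03. IFT70B at -1.13 and BBS10 at -1.16 are farthest left, and TTC21B at 0.12 is right of 0.

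All 8 BBS genes had changes below 0 in agonist against GPR39 cells, beside 6706 of 11916 named genes. So did all 7 BBSome subunits that the name rule takes in, which include TTC8, also named BBS8. The subunit BBIP1 falls outside the name rule and is given with the BBSome partners below. BBS10 encodes a chaperonin-like protein needed to assemble the BBSome. Its log2 signal was 6.89, 6.63 and 6.67 in mock, 6.87, 6.76 and 6.82 in GPR39 and 5.82, 5.64 and 5.51 in agonist cells. Mock and GPR39 arrays overlapped and the agonist arrays lay below both. The change was -1.16 ± 0.10 (SE), a 2.23-fold lower signal, with adjusted p = 0.000716. BBS12, of the same chaperonin-like group, changed by -0.11 ± 0.10 (adjusted p = 0.556).
Of the BBSome subunits, BBS5, TTC8, BBS2 and BBS7 were lower. BBS2, one of the paired propeller subunits at its core, read 7.86, 7.88 and 7.63 in mock, 7.43, 7.38 and 7.38 in GPR39 and 6.70, 6.83 and 6.83 in agonist cells. The groups formed 3 separate steps, and the change from GPR39 to agonist was -0.62 ± 0.09 (adjusted p = 0.00471). BBS5, the subunit that binds membrane lipids, read 5.08, 4.99 and 5.04 in mock, 4.89, 4.80 and 4.69 in GPR39 and 3.86, 4.36 and 4.07 in agonist cells. It also stepped down without overlap, by -0.70 ± 0.12 from GPR39 to agonist (adjusted p = 0.0124). TTC8 read 4.26, 4.39 and 4.55 in mock, 4.56, 4.48 and 4.30 in GPR39 and 3.75, 3.82 and 3.92 in agonist cells. Its mock and GPR39 arrays overlapped and the agonist arrays were lowest, with a change of -0.62 ± 0.10 (adjusted p = 0.00965).
BBS7, the partner of BBS2 in the core, changed by -0.34 ± 0.09 and was the call nearest the threshold (adjusted p = 0.0489). BBS4 (-0.43 ± 0.11, adjusted p = 0.0549), BBS9 (-0.36 ± 0.14, 0.17) and BBS1 (-0.27 ± 0.08, 0.0891) did not pass. BBS10, BBS2 and TTC8 passed without any one array. BBS5 missed the threshold without GPR39 array 1 (adjusted p = 0.0516), and BBS7 in all omissions but that of agonist array 2 (highest 0.158). BBS4 passed without mock array 1 or agonist array 3 (lowest 0.0431).

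TMEM17, a membrane protein of the transition zone that gates the cilium, was also lower. It read 4.01, 3.96 and 3.81 in mock, 3.88, 3.59 and 3.74 in GPR39 and 2.79, 2.64 and 3.16 in agonist cells. The mock and GPR39 arrays overlapped and the agonist arrays were below both. One agonist array was at or below the filter level, so the change from GPR39 of -0.87 ± 0.14 (adjusted p = 0.0089) rests partly on a dim spot; with that array set at the filter level it was at least 0.86 in size.

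**Figure D3:**
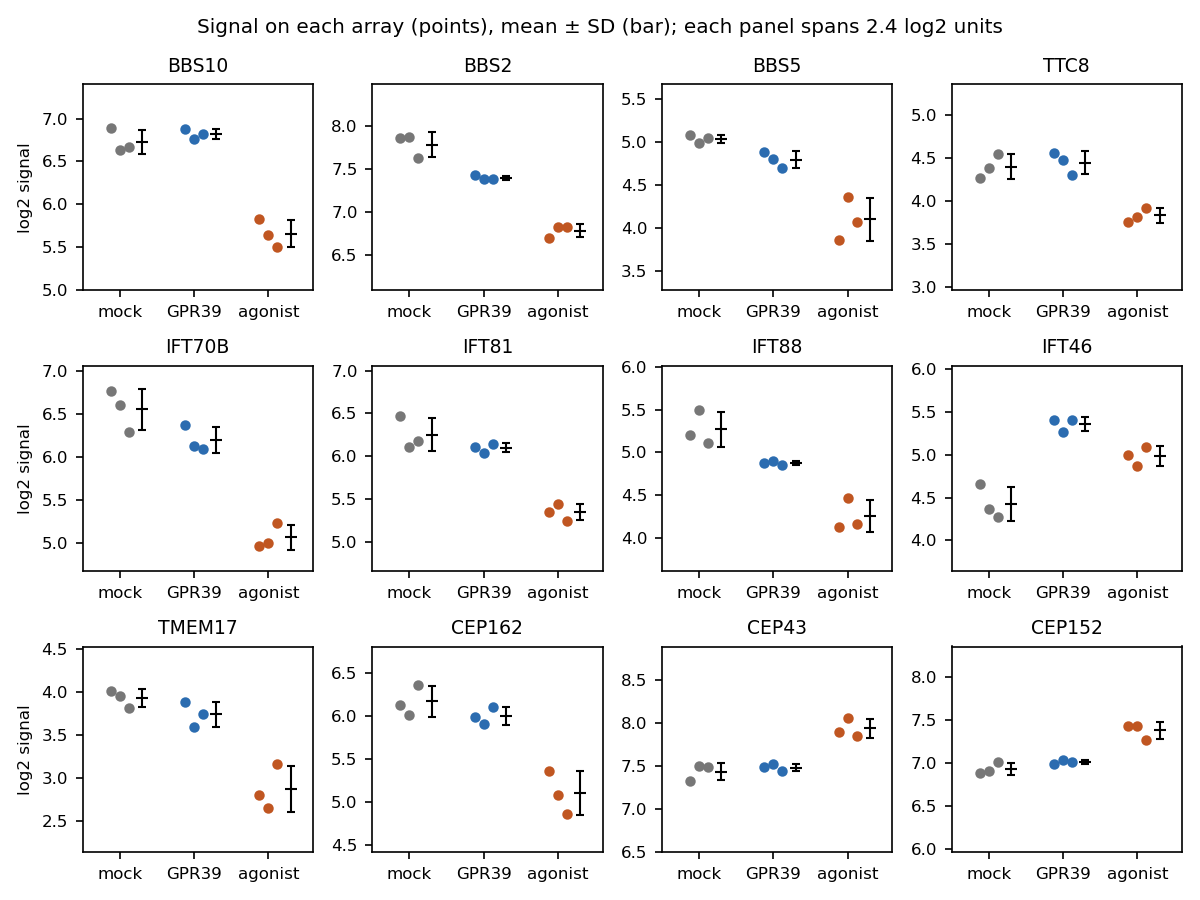
Log2 signal (y axis) of 12 genes on each array (points) by group (x axis), with the mean ± SD as a bar; every panel spans the same range of log2 signal. The agonist arrays of BBS10 lie between 5.51 and 5.82, below all mock and GPR39 arrays, while IFT46 is lowest in mock (4.27 to 4.65).

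Among the CEP genes, CEP162, CEP126, CEP41, CEP78, CEP20 and CEP55 were lower and CEP43 and CEP152 higher in agonist than in GPR39 cells. CEP162 recruits transition zone proteins to the basal body. It read 6.13, 6.01 and 6.36 in mock, 5.98, 5.90 and 6.11 in GPR39 and 5.36, 5.08 and 4.85 in agonist cells. Mock and GPR39 arrays overlapped, the agonist arrays were below both, and the change was -0.90 ± 0.14 (adjusted p = 0.00836). CEP126, a protein of the centrosome and cilium base, changed by -0.74 ± 0.16 (adjusted p = 0.026). CEP41, which is mutated in Joubert syndrome and serves the modification of axonemal tubulin, changed by -0.53 ± 0.08 (adjusted p = 0.0053). Smaller falls were those of CEP78 (-0.47 ± 0.06), CEP20 (-0.44 ± 0.09) and CEP55 (-0.36 ± 0.06), the last of which is best known for the final separation of daughter cells.
CEP43, also known as FOP, is a protein of the centriole and centriolar satellites that is related to CEP20. It read 7.32, 7.50 and 7.49 in mock, 7.48, 7.52 and 7.44 in GPR39 and 7.90, 8.06 and 7.85 in agonist cells. The agonist arrays were above the 6 others, and the change was 0.46 ± 0.08 (adjusted p = 0.0135). CEP152, a scaffold on which new centrioles form, read 6.88, 6.90 and 7.01 in mock, 6.98, 7.03 and 7.01 in GPR39 and 7.44, 7.43 and 7.27 in agonist cells. Its agonist arrays were likewise highest, with a change of 0.37 ± 0.07 (adjusted p = 0.0189).
CEP162, CEP41 and CEP78 passed without any one array. CEP43 missed the threshold without GPR39 array 3 (adjusted p = 0.0567) and CEP55 without GPR39 array 2 (0.0551). CEP126 missed it without GPR39 array 1 or 2 or agonist array 1 or 3 (highest 0.0933), CEP20 without GPR39 array 2 or 3 or agonist array 1 or 3 (highest 0.0724), and CEP152 without any GPR39 array or agonist array 1 or 2 (highest 0.0698). Of those that did not pass, CEP19 (-0.66 ± 0.18, adjusted p = 0.0588), which brings IFT-B to the cilium base, had the lowest change, and CEP350 (0.38 ± 0.15, adjusted p = 0.169) the highest.

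Beyond TTC8, the lower TTC genes were TTC12, TTC31 and TTC39A. The count of 4 of 32 TTC genes is near the 9.68% of all named genes that were lower. TTC12, an assembly factor of the dynein arms of motile cilia, changed by -0.56 ± 0.14 (adjusted p = 0.0449). TTC31 read 4.39, 4.39 and 4.50 in mock, 4.63, 4.62 and 4.74 in GPR39 and 4.04, 4.18 and 4.25 in agonist cells. Its GPR39 arrays were highest and its agonist arrays lowest, without overlap, with a change of -0.51 ± 0.08 (adjusted p = 0.00778). TTC39A changed by -0.50 ± 0.09 (adjusted p = 0.0143). TTC31 passed without any one array, TTC39A missed the threshold without GPR39 array 2 or 3 (highest adjusted p = 0.0597), and TTC12 in all omissions but that of agonist array 2 (highest 0.139). Of the TTC genes that did not pass, TTC9C had the lowest change (-0.38 ± 0.16, adjusted p = 0.205) and TTC17 the highest (0.29 ± 0.08, adjusted p = 0.0595). Without mock array 1 TTC17 passed (adjusted p = 0.0405).

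GPR39 against mock addresses what receptor and cumate do without the agonist. In this comparison 2 of 96 members were higher and none lower (limma). At an unadjusted p under 0.05, 6 were higher and 10 lower, but the share of all probe sets at that cut was not counted. At the adjusted threshold, 0.749% of all probe sets tested were higher and 0.422% lower, and over named genes 1.03% were higher and 0.604% lower. Centring each array on its 75th percentile turned the split of all probe sets from 250 higher and 141 lower to 310 and 105, and left the 2 member calls in place. Without mock array 1 the split turned to 416 higher and 907 lower. The member median was -0.04, against 0.01 for all probe sets and 0.02 for named genes.
IFT46, a core subunit of IFT-B, was higher. It read 4.65, 4.36 and 4.27 in mock, 5.41, 5.27 and 5.41 in GPR39 and 4.99, 4.87 and 5.09 in agonist cells. The 3 groups did not overlap: mock was lowest, GPR39 highest and agonist between them. The change from mock to GPR39 was 0.93 ± 0.11 (adjusted p = 0.00951), and from GPR39 to agonist -0.38 ± 0.11 (adjusted p = 0.0823). Without mock array 2, GPR39 array 1 or GPR39 array 3 the rise missed the threshold (highest adjusted p = 0.0581).
The other higher member was CEP192P1, a pseudogene related to the centrosome gene CEP192 by name. It read 2.78, 2.97 and 2.74 in mock, 3.93, 3.93 and 3.58 in GPR39 and 3.81, 3.97 and 4.07 in agonist cells. Mock arrays were below the 6 others and close to the filter level, which was 2.64, 2.64 and 2.67 on the mock arrays. The change was 0.98 ± 0.12 (adjusted p = 0.0107); it missed the threshold without GPR39 array 1 or 2 (highest 0.0609), and a second probe set had 0.71 ± 0.22 (adjusted p = 0.19). CEP192 itself had -0.35 ± 0.10 (adjusted p = 0.156), and the array may mix related transcripts.

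Several cilium genes had lower means in GPR39 than in mock cells without passing. IFT172, the largest IFT-B subunit, read 5.45, 5.72 and 5.54 in mock, 5.10, 5.06 and 5.13 in GPR39 and 4.66, 4.76 and 4.86 in agonist cells. The groups stepped down without overlap, and the change from mock to GPR39 was -0.47 ± 0.09 (adjusted p = 0.0523). Without mock array 1 it passed (adjusted p = 0.0292), as did CEP192, so that 2 IFT and 2 CEP genes passed. BBS2 (-0.39 ± 0.09, adjusted p = 0.0865), TTC28 (-0.41 ± 0.09, 0.088) and CEP350 (-0.40 ± 0.15, 0.273) had the lowest changes of their families. At the other end, IFT43 (0.16 ± 0.08), BBS12 (0.20 ± 0.10), CEP20 (0.21 ± 0.09) and TTC31 (0.24 ± 0.08) had the highest changes among members not past the threshold, with adjusted p-values from 0.224 to 0.414.

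**Figure D4:**
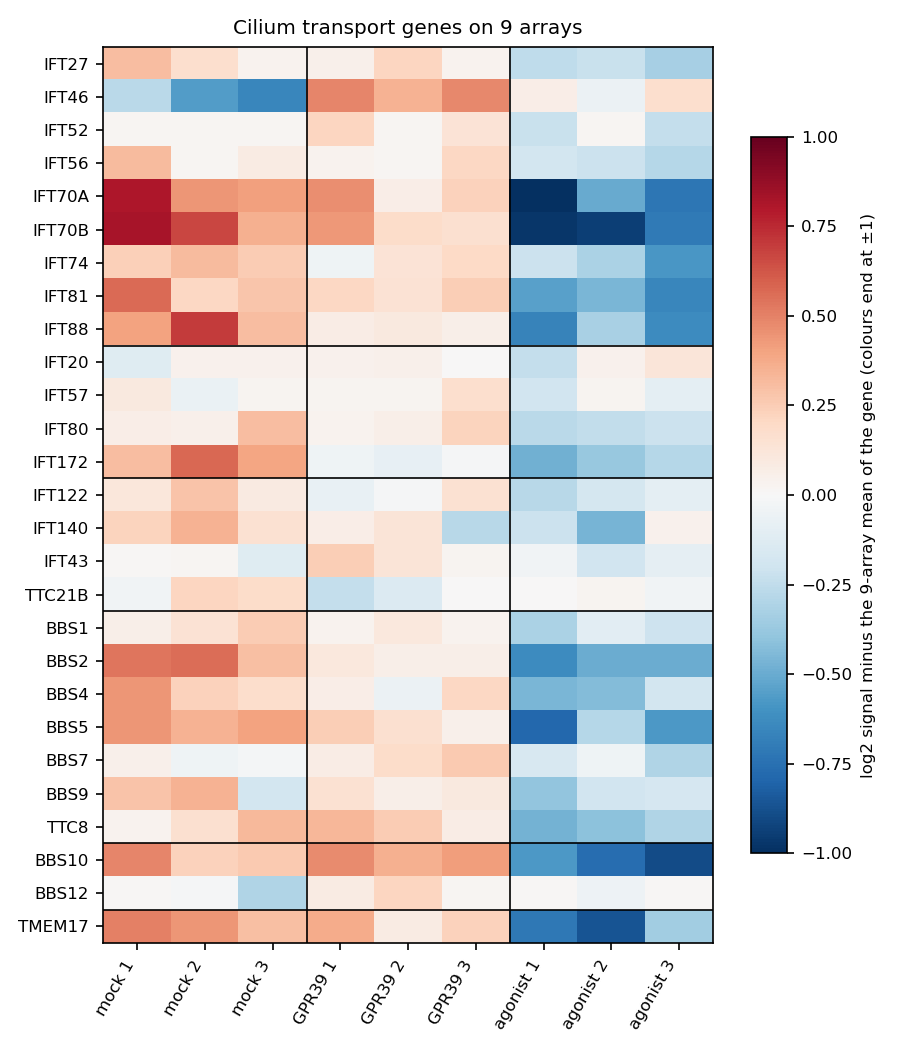
Log2 signal minus the gene's own mean over 9 arrays (colour, ending at 1 below and above 0) for each transport gene and TMEM17 (vertical, in the order IFT-B core, IFT-B outer part, IFT-A, BBSome, chaperonin-like BBS, TMEM17) on each array (horizontal). IFT46 is lowest in mock, whereas IFT70A, IFT70B and BBS10 are lowest in the 3 agonist arrays.

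By their labels, agonist and mock cells differ by receptor and agonist together, though no label says that cumate induced the receptor in agonist cells. The comparison shares its arrays with both others. Here 28 of 96 members were lower and 5 higher in agonist cells (limma). Over all probe sets tested 8.94% were lower and 6.11% higher, and over named genes 14.0% were lower and 7.82% higher. Centring each array on its 75th percentile turned the split of all probe sets from 2039 higher and 2983 lower to 2771 higher and 2159 lower. With that centring 8 IFT genes were lower and 1 higher, and 5 BBS genes were lower. The family medians were -0.39 for IFT, -0.52 for BBS, -0.15 for TTC and -0.11 for CEP, against 0.02 for all probe sets and -0.01 for named genes.
In IFT-B, 9 of 13 genes were lower and IFT46 was higher (0.56 ± 0.11, adjusted p = 0.0132; 0.0505 without mock array 2). The falls were largest for IFT70B (-1.49 ± 0.14, a 2.81-fold lower signal, adjusted p = 0.000384), IFT70A (-1.36 ± 0.19, adjusted p = 0.00264) and IFT88 (-1.01 ± 0.12, adjusted p = 0.00139). The second probe set of IFT70A had only -0.20 ± 0.19 here (adjusted p = 0.531), and 0.28 ± 0.19 from mock to GPR39 (0.532), so the size of its fall depends on the probe set. IFT81 (-0.90), IFT172 (-0.81), IFT74 (-0.64), IFT27 (-0.44), IFT80 (-0.39) and IFT56 (-0.37) were lower too. Of the IFT-A genes, IFT122 was lower (-0.34 ± 0.09, adjusted p = 0.0402) and missed the threshold in all omissions but that of GPR39 array 3 (highest 0.125). IFT56 missed it in all omissions but those of mock array 2 and GPR39 array 3 (highest 0.105), and IFT80 missed it without mock array 3 or any agonist array (highest 0.0718). IFT140, mutated in skeletal ciliopathies, had -0.46 ± 0.15 and did not pass (adjusted p = 0.0854).

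Of the BBS genes, 5 of 8 were lower in agonist than in mock cells: BBS10 (-1.07 ± 0.10, adjusted p = 0.000456), BBS2 (-1.003 ± 0.09, adjusted p = 0.000235), BBS5 (-0.94 ± 0.12, adjusted p = 0.00183), BBS4 (-0.64 ± 0.11, adjusted p = 0.00747) and BBS1 (-0.36 ± 0.08, adjusted p = 0.0205). BBS1, a subunit often mutated in the syndrome, missed the threshold without mock array 2 or 3 or agonist array 1 or 3 (highest 0.0623). BBS9 (-0.40 ± 0.14, adjusted p = 0.0959) and BBS7 (-0.16 ± 0.09, 0.259) did not pass, and BBS12 had 0.09 ± 0.10. TMEM17 was lower too (-1.06 ± 0.14, adjusted p = 0.00194). With its dim agonist array set at the filter level, the fall was at least 1.05, a bound that was not tested.
Of the 38 CEP genes tested, 8 were lower and 3 higher, beside 14.0% and 7.82% of all named genes, so the higher count is near its share. CEP162 (-1.07 ± 0.14, adjusted p = 0.00197), CEP126 (-0.86), CEP41 (-0.62), CEP78 (-0.55), CEP192 (-0.45), CEP70 (-0.44), CEP44 (-0.42) and CEP55 (-0.32) were lower. CEP192P1 (1.12 ± 0.12), CEP43 (0.50 ± 0.08) and CEP152 (0.45 ± 0.07) were higher. The second probe set of CEP192P1 had 0.65 ± 0.22 and did not pass (adjusted p = 0.0846). CEP192 missed the threshold without mock array 2 or 3 or agonist array 1 or 3 (highest adjusted p = 0.0595), and CEP44 in all omissions but those of mock array 2 and agonist array 2 (highest 0.129). Of the 32 TTC genes tested, 4 were lower and 1 higher, neither count above the share of all named genes. TTC12 (-0.63), TTC28 (-0.59), TTC8 (-0.57) and TTC39A (-0.37) were lower and TTC24 higher (0.28 ± 0.08). TTC12 missed the threshold without mock array 2 or agonist array 1 (highest 0.0716), TTC39A without mock array 1 or 3 or agonist array 2 or 3 (highest 0.0798), and TTC24 in all omissions but that of mock array 3 (highest 0.124). TTC8, TTC28 and CEP162 passed without any one array. CEP295 (-0.52 ± 0.17, adjusted p = 0.0734) and TTC3 (-0.37 ± 0.12, 0.0769) did not pass, but each passed without mock array 1.

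Other genes of the same organelle were read from lists, described here by their counts, beside the 9.68% of all named genes that were lower and 3.64% that were higher in agonist against GPR39 cells. Counts of 1 of 7 are near that share. In agonist against GPR39 cells, 1 of 7 motor genes was lower, KIF3B (-0.46 ± 0.09, adjusted p = 0.0158), a motor subunit of kinesin-2. KIF3A, its partner, had -0.10 ± 0.07. Of 20 tested transition zone and cilium membrane genes, 4 were lower and none higher: TCTN2 (-0.81 ± 0.06, adjusted p = 0.00043), TMEM107 (-0.78 ± 0.10, 0.0033), TMEM237 (-0.55 ± 0.06, 0.00179) and TCTN3 (-0.36 ± 0.09, 0.0425). TMEM17 belongs to the same gate. Of 9 BBSome partners, 3 were lower: TRIM32 (-0.57 ± 0.09), MKKS (-0.41 ± 0.10), a chaperonin-like relative of BBS10, and CFAP418 (-0.40 ± 0.09). BBIP1, in this list though itself a BBSome subunit, had -0.27 ± 0.08 and did not pass (adjusted p = 0.0788). From mock to agonist BBIP1 was lower (-0.36 ± 0.08, adjusted p = 0.0184). None of 17 centriole and satellite genes passed in either direction in limma, and at an unadjusted p under 0.05 there were 1 higher and 4 lower. Of 7 cilium disassembly genes 1 was lower, the tubulin deacetylase HDAC6 (-0.43 ± 0.09, adjusted p = 0.0219).
The median changes were -0.13 for the transition zone list, -0.27 for the BBSome partners, -0.12 for the motors and -0.05 for the centriole list. The RFX factors that read the X-box were not named on the array. FOXJ1, the regulator of motile cilia, had 0.27 ± 0.10 (adjusted p = 0.143), and none of 9 tested multiciliated cell markers passed in any comparison in limma (1 was higher from GPR39 to agonist at an unadjusted p under 0.05). They had their mean level between 3.93 and 3.98 in mock, 3.97 and 4.08 in GPR39 and 4.06 and 4.06 in agonist arrays.

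**Figure D5:**
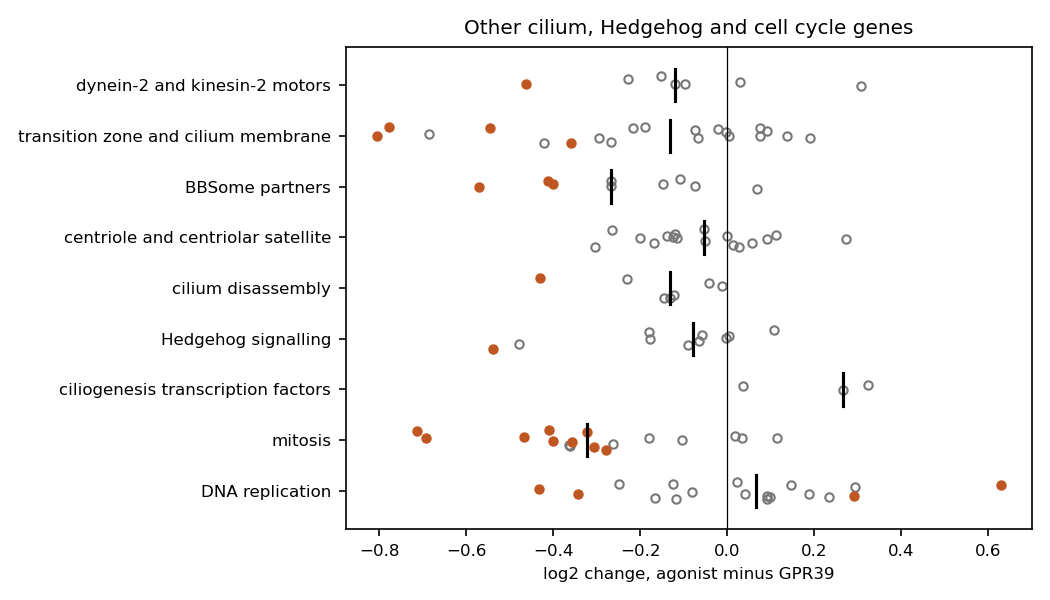
Log2 change from GPR39 to agonist cells (x axis) of each tested gene in 9 lists of cilium, Hedgehog and cell cycle genes (y axis); filled points passed an adjusted p of 0.05 and black bars are list medians. TCTN2 at -0.81 and TMEM107 at -0.78 are the lowest of the transition zone list, and 9 of 17 mitosis genes were lower with a median of -0.32.

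Mitosis genes moved beside these changes, and cells carry a primary cilium mainly outside division. In agonist against GPR39 cells 9 of 17 tested mitosis genes were lower and none higher, beside 9.68% and 3.64% of all named genes. The mitosis median was -0.32, with HMMR (-0.71 ± 0.06, adjusted p = 0.000575) and KIF20A (-0.69 ± 0.11, 0.00935) among the lower genes. Of 18 DNA replication genes, 2 were higher, RRM2 (0.63 ± 0.06) and CDC6 (0.29 ± 0.07), and 2 lower, GINS1 (-0.43 ± 0.08) and GINS2 (-0.34 ± 0.07). The count of lower replication genes is near the 9.68% of all named genes, and the median of this list was 0.07. The part of the cell cycle in the changes of the cilium genes was not tested.
Hedgehog genes, whose proteins signal through the cilium, were read as well. Of 10 tested, 2 were lower in GPR39 than in mock cells, where 0.604% of all named genes were lower. From GPR39 to agonist cells 1 of 10 was lower, near the 9.68% of all named genes. PTCH1, the Hedgehog receptor and a target of the pathway, was lower in GPR39 than in mock cells (-0.78 ± 0.10, adjusted p = 0.00988) and lower in agonist than in GPR39 cells (-0.54 ± 0.10, adjusted p = 0.0127). Its means were 5.93 in mock, 5.15 in GPR39 and 4.61 in agonist cells. CDON, a Hedgehog co-receptor, was lower in GPR39 than in mock cells (-0.84 ± 0.15, adjusted p = 0.047) and had -0.07 ± 0.15 from GPR39 to agonist. In agonist against mock cells, where 14.0% of named genes were lower, 4 of 10 tested Hedgehog genes were lower: PTCH1 (-1.32), CDON (-0.91), GAS1 (-0.80) and GLI3 (-0.62). GLI1, another target of the pathway, did not pass in any comparison: it had 0.16 ± 0.09 from mock to GPR39, -0.18 ± 0.09 from GPR39 to agonist and -0.02 ± 0.09 from mock to agonist.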

How the data were processed

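The deposited series matrix holds log2 signals of 53617 probe sets on 9 Affymetrix arrays; the submitters' processing notes name MAS5, with no version, while the log base, the genome build and any normalization between arrays are each not given in the sources used here. Deposited by the authors with values from 0.717 to 13.50, the table was taken as log2 from its range and used as deposited; if the base were another, every fold printed here would differ. Probe sets were named from the platform annotation: 16098 had 1 gene symbol. Probe sets above the 40th percentile of the array on at least 3 of 9 arrays were tested (33376). limma 3.58.1 (R 4.3.3; lmFit and eBayes, two-sided) was fitted over all 9 arrays with a term per group, and p-values were adjusted by the Benjamini-Hochberg method over all probe sets tested. Changes are differences of log2 means with the moderated SE of the fit. The fit was tested on simulated data. The members, the lists and the named genes (all members past the threshold, and per family those with the largest changes not past it) were chosen with earlier results of these data known. Promoter windows are from RefSeq, GRCh38.p14, read with Python 3 scripts. Alternatives were other scalings, filters, fits and probe sets, and the omission of each array. Protein-coding members alone were an alternative added after seeing the data. Levels of different probe sets cannot be compared.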

Additional observations from a re-analysis of the deposited data

How the results depend on the processing

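The counts of IFT, BBS, TTC and CEP genes past the threshold stayed within 1.5 times of those reported under centring on the 75th percentile, quantile normalization and no filter. With a filter at the 60th percentile, and likewise with a trended and robust eBayes fit, 2 IFT genes and 1 BBS gene passed in GPR39 against mock. In agonist against mock, 2 TTC genes passed with only the 2 groups compared. In GPR39 against mock, 0 CEP genes passed with the second probe set of CEP192P1 or among protein-coding members only, by construction. The replicate numbers did not pair the arrays: deviations of same-numbered arrays correlated between -0.10 and 0.06. With the replicate block, 3 IFT and 5 CEP genes passed in agonist against GPR39 and 3 TTC genes in agonist against mock. Leaving out each array in turn gave, in GPR39 against mock, 0 to 2 IFT and 0 to 2 CEP genes. In agonist against GPR39 it gave 2 to 9 IFT, 2 to 4 BBS, 2 to 4 TTC and 4 to 9 CEP genes, and in agonist against mock 8 to 11 IFT, 4 to 5 BBS, 3 to 4 TTC and 9 to 15 CEP genes. Without single arrays the change of IFT122P3 in agonist against mock ranged from -0.17 to 0.12 and that of BBS12 from -0.010 to 0.15; neither passed. The pseudocount was not run, since the values are already log2. The cause of these differences was not tested. Signal near the filter limits TMEM17, TTC3P1 and, in mock cells, CEP192P1.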
